A study of Mus musculus with 24 samples.

Results

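Collagen chain genes were described in mouse choroid, the vascular coat beneath the retina. The members were all protein-coding gene rows whose symbol has the form Col, number, a, number. By this rule 44 of the 56065 deposited gene rows were members, among them 11 chains of fibril forming (fibrillar) collagens, 8 chains of basement membrane collagens and 25 chains of other collagens. RNA sequencing was available for 24 libraries in 4 groups, and each library is called here by the number in its label. The groups were wild type choroid without laser (n = 4, libraries 21, 22, 26 and 27), Ceacam1-/- choroid without laser (n = 4, libraries 23, 24, 25 and 28), wild type choroid after laser (n = 9, libraries 1, 2, 3, 11, 12, 13, 16, 17 and 19) and Ceacam1-/- choroid after laser (n = 7, libraries 4, 5, 6, 7, 14, 15 and 18). Adult mice of both sexes on the C57BL/6J background were used, the Ceacam1-/- mice were homozygous for a deletion of the first exons of Ceacam1, and wild type littermates served as controls. Laser mice received 6 spots per eye (150 mW, 200 µm, 100 ms) from a frequency-doubled Nd:YAG laser, a procedure that breaks Bruch's membrane and is used to elicit choroidal neovascularization. The time between laser and tissue collection, the sex behind each library and, after laser, the number of animals per library are not given in the sources used here, while the groups without laser are counted in mice there. Where libraries are not separate animals, p-values measure only the spread between these libraries. The 4 Y-linked genes read as a sign of the sex makeup had median log2 fold changes of 3.28 after laser in wild type, -0.61 after laser in Ceacam1-/-, -0.28 between genotypes without laser, -4.20 between genotypes after laser and -3.92 in the interaction. None of the 4 was called by limma in any of these, with 2 at an unadjusted p under 0.05 between genotypes after laser, and the part of sex in the results was examined only through a Y-linked covariate. Every library number above 20 belonged to the groups without laser, and whether the numbers follow a preparation batch is not stated, so a batch of that kind and the laser cannot be told apart.

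Collagens are proteins of 3 chains wound into a triple helix. Fibrillar collagens, mainly types I, III and V, assemble outside the cell into the cross-banded fibrils that carry load in sclera, choroidal stroma and scars. Type IV forms the sheet-like network of basement membranes beneath endothelium and retinal pigment epithelium, with types XV and XVIII at its borders, and Bruch's membrane contains both kinds. Other collagens form beaded filaments, hexagonal networks, links on the fibril surface or membrane-bound molecules. In laser lesions of the choroid, fibroblast-like cells are known to deposit collagen around the new vessels.

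Values are normalized counts, the deposited read estimates per gene after division by a factor for library size, and their sum per library ran from 23704346 (Ceacam1-/- laser, library 14) to 35094410 (Ceacam1-/- no laser, library 25). All 44 collagen genes had a mean of at least 10 and were tested. Fold changes are on the scale log2(normalized count + 1) from limma, with p-values adjusted over all genes tested (Benjamini-Hochberg), and a gene was called at an adjusted p under 0.05. Exact permutation tests of single genes were two-sided on the absolute difference of mean log2 values. In the group labels, Ceacam1 itself served as a check: it was between 957.6 and 5027 in wild type without laser, 405 and 1171 in Ceacam1-/- without laser, 773.5 and 8367 in wild type after laser, and 67.79 and 905.1 in Ceacam1-/- after laser. The genotypes overlapped in both conditions, in Ceacam1-/- only through library 28 (1171) without laser and library 15 (905.1) after laser. The other Ceacam1-/- libraries were at 507.9 or less without laser and 438.4 or less after laser. Reads from exons outside the deletion can also enter this value, and their part was not tested.

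A set of 5 libraries stood apart from the rest. The 6 photoreceptor markers, all of them above 0 in all 24 libraries, summed to 882830, 504889 and 954254 in libraries 14, 15 and 18 (Ceacam1-/- laser), to 555034 in library 23 (Ceacam1-/- no laser) and to 509826 in library 21 (wild type no laser), against 243169 or less in the other 19 libraries. The photoreceptor-rich libraries after laser also carried few stromal transcripts, the 8 fibroblast markers summing to 6102, 26918 and 13230 in libraries 14, 15 and 18 against 41622 to 56596 in the other 4 Ceacam1-/- laser libraries. Markers of surface epithelium, 6 genes led by Krt15, summed to 70674 or more in libraries 15, 19, 22, 27 and 28 and to 11251 or less in the other 19. The highest Ceacam1 value of each group lay in 1 of these 5. The 6 markers of skeletal muscle, a tissue attached outside the eye, were also above 0 in every library and led by Acta1 (3804 to 277408). Fewer cells of a type and less RNA per cell cannot be told apart in tissue libraries of this kind. Counts after laser are therefore given with all 24 libraries and without the 5 photoreceptor-rich ones, a choice made after the marker sums were seen, and the part of tissue content in any result was not tested.

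The summed collagen level made up 0.4291, 0.5555, 0.9463 and 0.5522% of the library in wild type without laser and 0.2624, 0.6664, 0.3892 and 0.8493% in Ceacam1-/- without laser. After laser it was 0.7724 to 1.811% in wild type (median 1.466%, n = 9). In Ceacam1-/- after laser it was 2.19, 2.363, 1.658 and 2.026% in libraries 4 to 7 but 0.2636, 0.4281 and 0.3569% in libraries 14, 15 and 18, which lay as low as the groups without laser. The fibrillar share of this sum was 52.87 to 59.26% in wild type without laser and 58.08 to 80.26% in wild type after laser, with only library 17 of the laser group inside the range without laser. In Ceacam1-/- it was 38.67 to 68.49% without laser and 55.6 to 77.9% after laser.

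Divided by the length of the canonical transcript, the level over all 24 libraries was highest for the chains of type I collagen, Col1a1 (12764 per kb) and Col1a2 (11932 per kb), followed by the single chain of type III collagen, Col3a1 (8064 per kb). The next levels per kb were those of Col8a1 (3024) and Col8a2 (2856), which build the hexagonal network of type VIII collagen, and of Col9a3 (2641), a chain of the fibril associated type IX collagen. The other type IX chains, Col9a1 and Col9a2, were far lower at 67.88 and 32.31 per kb, so the level of Col9a3 is not that of type IX collagen. Among basement membrane chains, the level per kb was highest for Col4a1 (1006), Col18a1 (615.7) and Col4a2 (534.3). The lowest levels per kb were those of Col19a1 (4.537) and Col6a4 (4.021), and these were the members listed at 0 in any library. These means are over 24 libraries, 16 of them after laser. Without laser the level of Col3a1 was 2178 per kb in wild type and 1811 per kb in Ceacam1-/-, below those of Col9a3 (3017 and 3644), Col8a2 (2873 and 2286) and Col8a1 (2359 and 2054), and after laser it was below only those of Col1a1 and Col1a2 in both genotypes (13051 and 8589 per kb). Levels spanned more than 3 orders of magnitude within the family, and with the union of all annotated exons as length Col1a1, Col1a2 and Col3a1 kept ranks 1, 2 and 3 over all libraries.

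**Figure D1:**
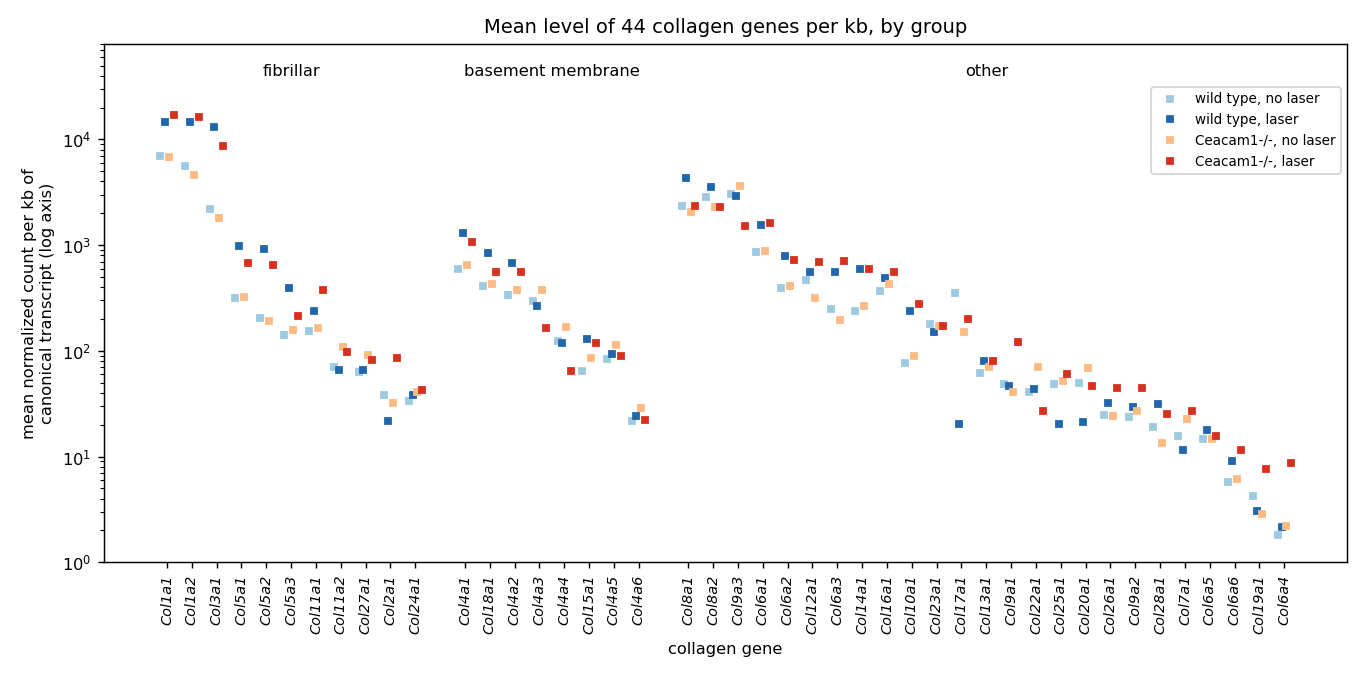
Mean normalized count per kb of canonical transcript (log axis) of each of the 44 collagen genes in the 4 groups, ordered by level within fibrillar, basement membrane and other collagens. Col1a1 and Col1a2 stand highest in all 4 groups, Col3a1 follows in the laser groups but lies below Col9a3, Col8a2 and Col8a1 without laser, and the laser groups lie above the groups without laser for Col1a1, Col1a2 and Col3a1.

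The genes share a structure that the choice by name did not use. The canonical transcripts of the 44 genes had a median of 48 exons (3 to 119), against 9 exons for the 15737 protein-coding genes tested, and a median length of 6076 bases against 3428. Several members lie side by side. Col4a1 and Col4a2 are transcribed away from each other on chromosome 8 and their annotated ends overlap by 356 bases, and Col4a3 and Col4a4 on chromosome 1 overlap by 159 bases. Whether reads were counted by strand is not stated, so reads from these short overlaps cannot be told apart. Col3a1 and Col5a2 are neighbours on chromosome 1, on opposite strands with their 3′ ends facing each other across 16713 bases, and their starts are 191744 bases apart.

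The 250 bases before the annotated start are shown for the 3 genes that passed the test after laser in wild type and for Col1a1, the most abundant member, so that the start regions of fibrillar chains with and without a call can be set side by side. They were read from the mouse genome GRCm39 at the canonical start in GENCODE vM39 and are written 5′ to 3′ on the gene's strand. The positions are chr1:45350448-45350697 (plus strand) for Col3a1, chr1:45542443-45542692 (minus strand) for Col5a2, chr9:20726419-20726668 (minus strand) for Col5a3 and chr11:94826800-94827049 (plus strand) for Col1a1. No annotated exon reaches into any of the 4 windows. Capitals mark matches on either strand to CCAAT (read as ATTGG on the other strand), to GGGCGG (read as CCGCCC there) and to TATAAA (read as TTTATA there).
Col3a1: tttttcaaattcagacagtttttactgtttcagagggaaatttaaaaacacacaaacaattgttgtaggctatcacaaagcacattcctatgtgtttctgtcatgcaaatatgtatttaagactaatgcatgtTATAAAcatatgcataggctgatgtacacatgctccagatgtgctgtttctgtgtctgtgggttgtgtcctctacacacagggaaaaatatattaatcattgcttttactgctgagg
Col5a2: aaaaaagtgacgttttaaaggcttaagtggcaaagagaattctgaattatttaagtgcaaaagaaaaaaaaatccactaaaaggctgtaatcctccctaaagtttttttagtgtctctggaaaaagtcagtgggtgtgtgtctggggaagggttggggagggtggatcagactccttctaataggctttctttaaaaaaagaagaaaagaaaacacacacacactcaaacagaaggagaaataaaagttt
Col5a3: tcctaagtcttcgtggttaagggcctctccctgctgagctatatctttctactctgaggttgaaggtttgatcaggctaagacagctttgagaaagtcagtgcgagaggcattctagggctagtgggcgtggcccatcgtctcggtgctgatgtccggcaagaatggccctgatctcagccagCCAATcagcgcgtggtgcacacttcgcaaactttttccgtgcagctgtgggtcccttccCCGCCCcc
Col1a1: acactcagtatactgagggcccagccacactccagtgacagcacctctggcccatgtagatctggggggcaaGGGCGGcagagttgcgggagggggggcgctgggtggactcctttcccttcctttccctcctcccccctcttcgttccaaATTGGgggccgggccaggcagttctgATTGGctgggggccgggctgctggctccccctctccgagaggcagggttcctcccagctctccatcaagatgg
The windows differed. Col1a1 held 2 CCAAT matches, both on the other strand, and 1 GGGCGG match. Col5a3 held 1 CCAAT match and 1 GGGCGG match, and the 2 neighbours on chromosome 1 held neither, Col3a1 having 1 TATAAA match and Col5a2 none of the motifs. The base composition differed as well, with 35.2% G and C in the Col3a1 window and 36% in that of Col5a2, against 55.6% for Col5a3 and 64.8% for Col1a1. Over windows of the same length, CCAAT was found in 36.4%, GGGCGG in 36.5% and TATAAA in 11.9% of 21599 protein-coding genes, and in 34.1, 47.7 and 15.9% of the 44 collagen genes. A match is a description of the letters and not evidence that a factor binds there.

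After laser in wild type choroid, the fibrillar chains Col3a1, Col5a2 and Col5a3 rose, by 2.50, 2.15 and 1.46 on the log2 scale (9 laser libraries against 4). These were 3 of 44 collagen genes called higher (6.82%), against 4.23% of all 19950 genes tested, so the share in the family lay near the background. No collagen gene was called lower by limma, where 1.05% of all genes were, although 1 of the 14 members with an unadjusted p under 0.05 was lower (20.02% of all genes had such a p in either direction). The median change was 1.11 over the 11 fibrillar chains, 0.55 over the 8 basement membrane chains and 0.26 over the other 25, beside -0.10 over all genes tested.

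Col3a1 encodes the type III chain that shares fibrils with type I in distensible tissue. It was 7500, 14656, 13848 and 12463 in the 4 wild type libraries without laser and ran from 25124 to 118190 after laser (median 65401), so the groups did not overlap. The mean rose from 12117 ± 3209 (SD, n = 4) to 72617 ± 30188 (SD, n = 9), a log2 fold change of 2.50 ± 0.57 (SE) with an adjusted p of 0.00957 in limma and an exact permutation p of 0.0014, the smallest these group sizes can give. Col5a2, the α2 chain of type V collagen that starts the growth of type I fibrils, was 876.2, 1794, 1996 and 1503 without laser and 4022 to 11112 after laser (median 6388). Again every laser library was above every library without laser, with a log2 fold change of 2.15 ± 0.47 (SE, adjusted p = 0.00766 in limma).

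Col5a3, the α3 chain of type V, was 474.8, 1145, 1116 and 766.6 without laser and 1283 to 4319 after laser (median 2148). Its groups did not overlap either, but the call was close to the threshold (log2 fold change 1.46 ± 0.42 SE, adjusted p = 0.0434 in limma). The Col5a3 call was lost in 11 of the 24 fits that left out 1 library (adjusted p of 0.0526 to 0.199 in those). It was also lost with a Y-linked covariate (adjusted p = 0.067), without the filter on low values (0.0722) and without a variance trend (0.0531). Of the 24 fits, Col3a1 and Col5a2 each lost their call in 1, without library 21, the wild type library without laser of highest photoreceptor content. With that library left out, the adjusted p was 0.0599 for Col3a1, 0.0567 for Col5a2 and 0.199 for Col5a3, with log2 fold changes of 2.28, 1.90 and 1.19. All 3 calls were also lost without the 5 libraries of highest surface epithelium markers. The adjusted p in limma was then 0.0786 for Col3a1, 0.0582 for Col5a2 and 0.137 for Col5a3.

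The type I chains were not called. Col1a1 was 24041, 38112, 65261 and 37227 without laser and 45515 to 122280 after laser in wild type (median 76632), the groups overlapping through library 26 without laser and library 17 after laser. Its log2 fold change was 1.11 ± 0.66 (SE) with an adjusted p of 0.35 in limma, while the exact permutation p, unadjusted, was 0.0042. Its partner Col1a2 was 17951, 28557, 45020 and 27758 without laser and 43649 to 106892 after laser, with a log2 fold change of 1.41 ± 0.62 (SE, adjusted p = 0.202). Col5a1, the main partner of Col5a2, had a log2 fold change of 1.63 ± 0.50 (SE, adjusted p = 0.0591).

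**Figure D2:**
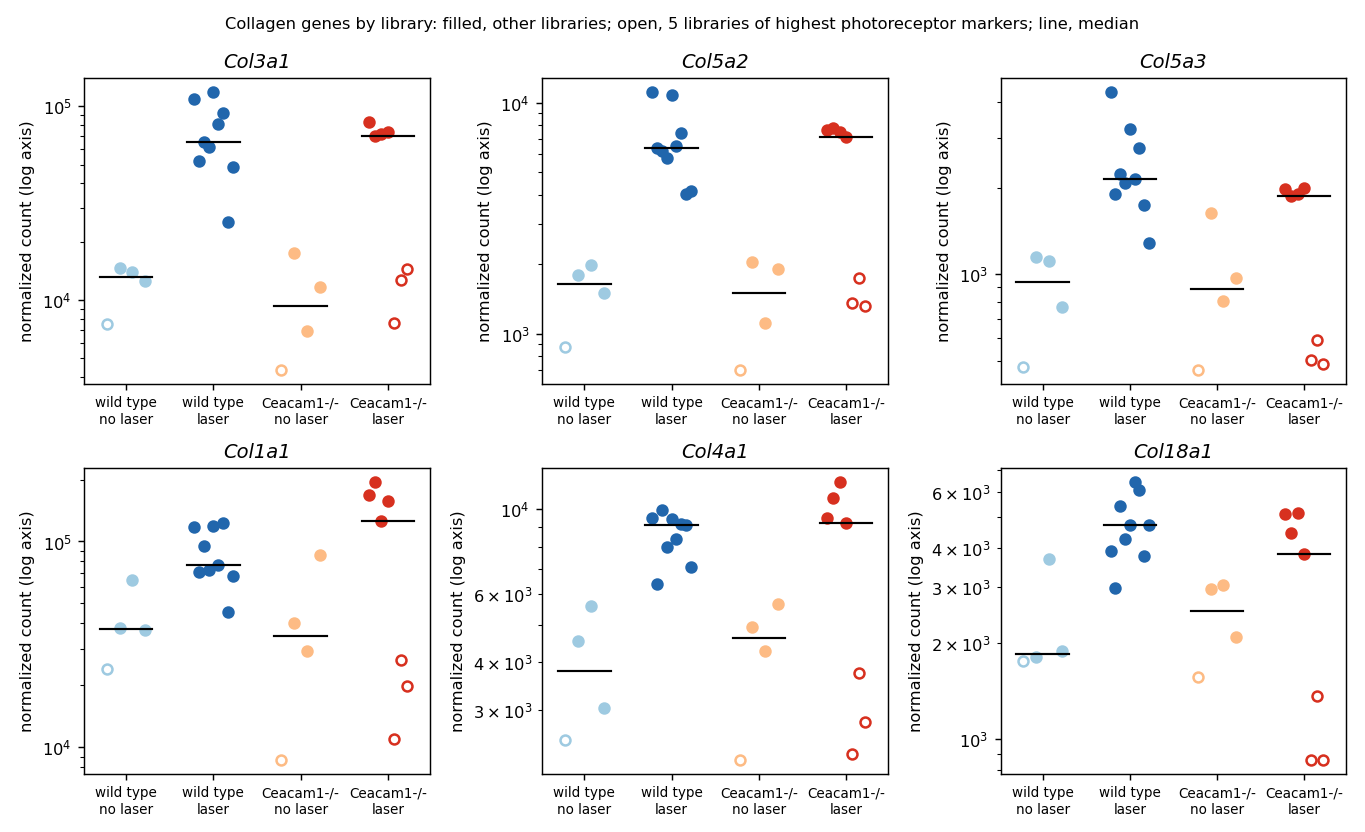
Normalized counts (log axis) of 6 collagen genes in each library of the 4 groups, with lines at the group medians and open circles for the 5 libraries of highest photoreceptor markers. In wild type the laser libraries of Col3a1, Col5a2, Col5a3 and Col4a1 sit above all libraries without laser. In Ceacam1-/- the open circles after laser lie within the range without laser, except for Col18a1, where they lie below it.

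Among basement membrane chains, the ubiquitous pair Col4a1 and Col4a2 had similar log2 fold changes and did not pass the test. Col4a1 was 2505, 4545, 5606 and 3035 in wild type without laser and 6403 to 9953 after laser (median 9102). Col4a2 was 1422, 2511, 3272 and 1857 without laser and 3565 to 5460 after laser (median 4586). The groups did not overlap for either gene, and the log2 fold changes were 1.18 ± 0.37 (SE, adjusted p = 0.0629 in limma) and 1.06 ± 0.34 (SE, adjusted p = 0.0705). Col18a1, whose protein is the source of the fragment endostatin, was 1759, 1817, 3681 and 1889 without laser and 2994 to 6421 after laser, with a log2 fold change of 1.07 ± 0.42 (SE, adjusted p = 0.146). Col4a3 and Col4a4, chains of the network found in specialised basement membranes of kidney and eye, had log2 fold changes of -0.21 and -0.11.

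In all, 8 of the 44 members (18.2%) had every wild type laser library above every wild type library without laser, against 4.5% of all genes tested. These were Col3a1, Col5a2, Col5a3, Col4a1, Col4a2, Col6a2, Col10a1 and Col14a1. None had every laser library below, against 1.75% of all genes. Of the last 3 named, Col6a2 is 1 of the chains of the beaded filaments of type VI (log2 fold change 1.03 ± 0.48 SE), Col10a1 is known from hypertrophic cartilage (1.77 ± 0.62 SE) and Col14a1 binds the surface of fibrils (1.41 ± 0.50 SE), and none of them passed the test (adjusted p = 0.229, 0.099 and 0.103). The other chains of type VI, Col6a1 and Col6a3, had log2 fold changes of 0.88 and 1.22 (adjusted p = 0.17 and 0.282).

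After laser in Ceacam1-/- choroid, no collagen gene was called in either direction by limma (0 of 44), against 2.07% of all genes tested called higher and 1.65% called lower. At an unadjusted p under 0.05 there were 10 members, 7 of them higher, beside 3997 of 19950 genes (20.04%). The median change was 0.84 over fibrillar, -0.16 over basement membrane and 0.38 over other chains, beside 0.02 over all genes. No member separated the groups, where 1.17% of all genes did so upwards and 0.962% downwards.

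After laser in Ceacam1-/-, libraries 14, 15 and 18 all lay below libraries 4 to 7 for 27 of the 44 members and all above them for 7, a count made after the values were seen. The share of all genes that split in this way was not counted, so nothing particular to collagens is read from these counts. Col3a1 was 4345, 17427, 6884 and 11654 without laser, 83492, 70260, 71912 and 74109 in libraries 4 to 7 after laser, and 7604, 12636 and 14500 in libraries 14, 15 and 18. Col1a1 was 8676, 39950, 29389 and 85491 without laser, 167637, 193877, 125274 and 156526 in libraries 4 to 7, and 10946, 26609 and 19731 in libraries 14, 15 and 18. Each of the 4 former values exceeded the highest Col1a1 value of the 9 wild type laser libraries (122280), whereas for Col3a1 they lay inside the wild type range. The log2 fold changes over all 7 laser libraries were 1.91 ± 0.59 (SE, adjusted p = 0.0715 in limma) for Col3a1, 1.49 ± 0.50 (SE, adjusted p = 0.0895) for Col5a2 and 1.03 ± 0.69 (SE, adjusted p = 0.416) for Col1a1. The last ran from 0.42 without library 23 to 1.52 without library 28 when 1 library was left out.

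The lowest p-values of the family in this comparison belonged to Col4a4, Col3a1 and Col4a3. Col4a4 was 939.4, 2439, 2518 and 1110 without laser and 174.6 to 1295 after laser (median 784.9). Col4a3 was 2254, 4090, 4455 and 2025 without laser and 557.5 to 2084 after laser (median 1543). In both the groups overlapped, and all 3 of the lowest values of Col4a4 and 2 of the 3 lowest of Col4a3 lay in libraries 14, 15 and 18. The log2 fold change was -1.53 ± 0.46 (SE, adjusted p = 0.064 in limma) for Col4a4 and -1.22 ± 0.38 (SE, adjusted p = 0.0747) for Col4a3. The 6 markers of retinal pigment epithelium, led by Ttr, were all above 0 in every library and summed to 190794 to 853497 in Ceacam1-/- without laser and to 36815 to 287475 after laser, and their part in these values was not tested.

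**Figure D3:**
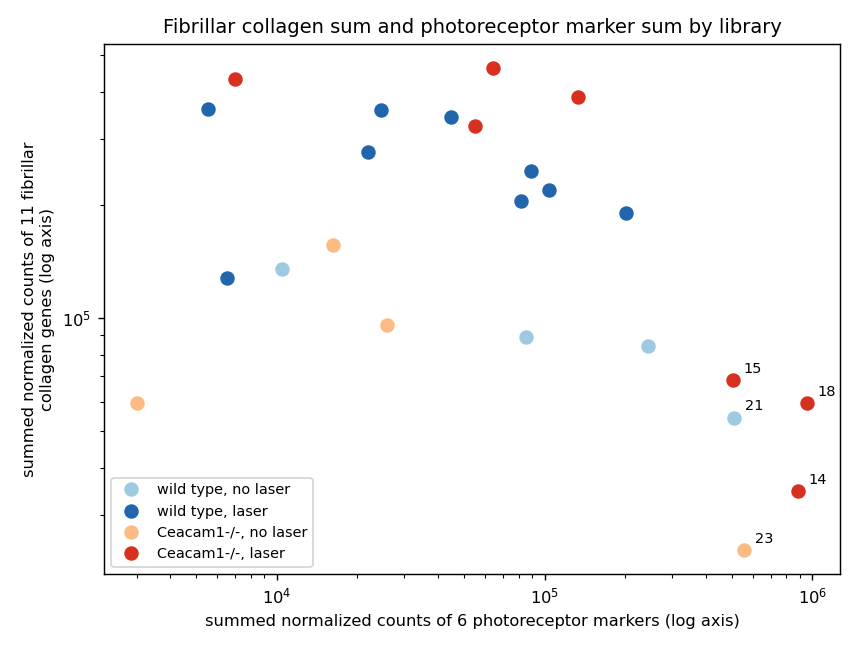
Summed normalized counts of the 11 fibrillar collagen genes (y, log axis) against those of 6 photoreceptor markers (x, log axis), 1 point per library. The 5 labelled libraries have photoreceptor sums of 504889 or more and fibrillar sums of 24172 to 68329, and the other 4 Ceacam1-/- laser libraries have fibrillar sums of 323644 to 462396.

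Without the 5 photoreceptor-rich libraries (3 and 3 libraries without laser, 9 and 4 after laser), more of the family was called in both genotypes. In wild type 12 of 44 (27.3%) were higher and 1 (2.27%) was lower, against 5.76 and 2.63% of 19596 genes tested. In Ceacam1-/- 14 of 44 (31.8%) were higher and none was lower, against 8.66 and 6.26% of all genes, with 5 members lower at an unadjusted p under 0.05. In the same fit, tissue markers were called too: in Ceacam1-/- 4 of 8 fibroblast markers were higher (median 0.75), 5 of 6 skeletal muscle markers lower (median -2.40) and 1 of 6 surface epithelium markers lower (median -4.03), and in wild type 1 fibroblast marker was higher (median 0.40) and 1 skeletal muscle marker lower (median -1.03). Of the other marker lists, 5 of 6 myeloid markers and 1 cartilage marker were higher in each genotype, and in Ceacam1-/- 1 cornea stroma marker was higher and 1 of 8 pericyte and smooth muscle markers lower. No photoreceptor or lens marker was called, but the photoreceptor medians were still -0.70 in wild type, 2.00 in Ceacam1-/- and 2.65 in the interaction. The lens medians were 1.73 in wild type and 3.18 in Ceacam1-/-. Their part in the collagen values was not tested. The 9 genes Col1a2, Col3a1, Col4a1, Col4a2, Col5a1, Col5a2, Col6a2, Col10a1 and Col14a1 were on both lists, 75% of the wild type list and 64.3% of the Ceacam1-/- list. By group, 5 and 6 of 11 fibrillar, 4 and 2 of 8 basement membrane and 3 and 6 of 25 other chains were higher in wild type and Ceacam1-/-. The median change in this subset was 0.89 and 1.42 over fibrillar, 0.45 and 0.23 over basement membrane and 0.23 and 0.78 over other chains, beside -0.07 and 0.00 over all genes, so that of the basement membrane chains in Ceacam1-/- turned sign against the fit of all libraries.

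In this subset Col3a1 had log2 fold changes of 2.28 ± 0.36 (SE) in wild type and 2.74 ± 0.41 (SE) in Ceacam1-/- (adjusted p = 0.000375 and 0.000207 in limma). Those of Col4a1 were 0.99 ± 0.17 and 1.06 ± 0.20 (SE), with adjusted p-values of 0.00105 and 0.00129. Col1a1 was called in Ceacam1-/- (1.77 ± 0.38 SE, adjusted p = 0.00375), and Col6a3, a long chain of type VI, likewise (2.25 ± 0.42 SE, adjusted p = 0.00132). In wild type Col18a1 (0.97 ± 0.23 SE), Col15a1 (0.90 ± 0.27 SE) and Col5a3 (1.19 ± 0.27 SE) were called, and Col20a1, a fibril associated chain, was the 1 lower (-1.72 ± 0.51 SE). Without the 5 libraries of highest surface epithelium markers instead, no collagen gene was called in either genotype, and the log2 fold change of Col3a1 in wild type was 2.76 (adjusted p = 0.0786). Of 19831 genes tested in that fit, 491 were called in wild type (478 higher, 13 lower) and at least 587 in Ceacam1-/-.

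**Figure D4:**
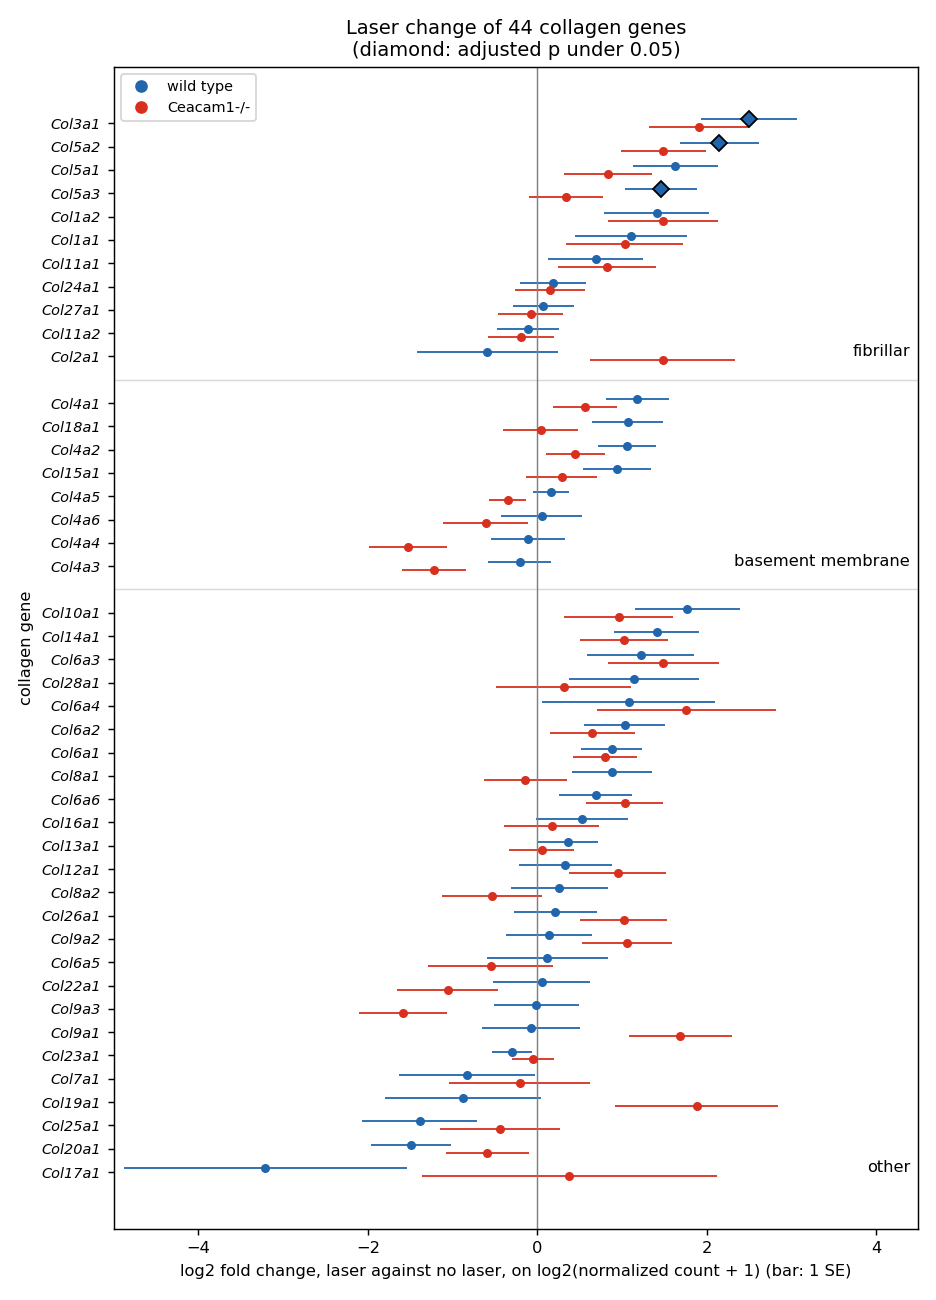
Log2 fold change after laser with its standard error for each of the 44 collagen genes in wild type and in Ceacam1-/-, from the fit of all 24 libraries, with diamonds where the adjusted p was under 0.05. The 3 diamonds are Col3a1, Col5a2 and Col5a3 in wild type.

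Because both chains of a ratio are read in the same library, 8 ratios of chains were also compared between groups, each as the ratio of levels per kb. They were chosen after the data were seen, and the 32 exact permutation tests were adjusted together, which does not cover the choice of pairs. Col3a1 to Col1a1, Col5a2 to Col1a1 and Col5a1 to Col5a2 each pair a chain called after laser in wild type with an uncalled chain. Their differences in wild type are therefore not independent of those calls. The type III to type I ratio, Col3a1 to Col1a1, was 0.3325, 0.4099, 0.2262 and 0.3568 in wild type without laser and 0.5883 to 1.127 after laser (median 0.8017). Every laser library lay above every library without laser, with a mean log2 difference of 1.38 (exact p = 0.0014, adjusted p = 0.0112). In Ceacam1-/- it was 0.5337, 0.4649, 0.2497 and 0.1453 without laser and 0.3862 to 0.7832 after laser (median 0.5308), a log2 difference of 0.88 with an exact p of 0.0303 (adjusted p = 0.097).

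After laser the Col3a1 to Col1a1 ratio was lower in Ceacam1-/- than in wild type, by 0.58 on the log2 scale (exact p = 0.00393, adjusted p = 0.018). The groups overlapped, the highest Ceacam1-/- values being 0.7832 in library 18 and 0.7405 in library 14, both rich in photoreceptor transcripts. Without the 5 photoreceptor-rich libraries the difference was -0.75 (exact p = 0.0028). Without laser the same ratio differed between genotypes by -0.07 (exact p = 0.886), and by -0.32 (exact p = 0.7) without the photoreceptor-rich libraries.

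Within type I and within type V collagen the balance of chains also moved with laser, and in both genotypes. Col1a1 to Col1a2 was 1.206 to 1.31 in wild type without laser and 0.8839 to 1.163 after laser, and 1.106 to 1.672 in Ceacam1-/- without laser and 0.9426 to 1.099 after laser. Neither pair of groups overlapped, and the log2 differences were -0.29 (exact p = 0.0014, adjusted p = 0.0112) and -0.46 (exact p = 0.00303, adjusted p = 0.0162). Col5a1 to Col5a2 was 1.357 to 1.839 in wild type without laser and 0.8688 to 1.334 after laser, and 1.34 to 1.9 in Ceacam1-/- without laser and 0.989 to 1.106 after laser. The groups did not overlap here either, with log2 differences of -0.52 (exact p = 0.0014, adjusted p = 0.0112) and -0.65 (exact p = 0.00303, adjusted p = 0.0162). In libraries 14, 15 and 18 the Col1a1 to Col1a2 ratio was 0.9574, 1.099 and 0.9426, just outside the 0.965 to 1.096 of libraries 4 to 7 and within the range of the wild type laser libraries.

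Of the remaining ratios, Col5a2 to Col1a1 rose in wild type by 1.04 on the log2 scale (exact p = 0.0014, adjusted p = 0.0112) and had a difference of 0.46 in Ceacam1-/- (exact p = 0.294). Between genotypes after laser it differed by -0.39 (exact p = 0.0773), and by -0.73 (exact p = 0.0014, unadjusted) without the photoreceptor-rich libraries. Col8a1 to Col8a2 rose in wild type by 0.62 (exact p = 0.00979, adjusted p = 0.0392) and had a difference of 0.41 in Ceacam1-/- (exact p = 0.0727). For Col4a1 to Col4a2, whose chains join in a fixed proportion in 1 molecule, the median was 1.772 without laser and 1.952 after laser in wild type (log2 difference 0.12, exact p = 0.0643). In Ceacam1-/- the difference was 0.11 (exact p = 0.4), and 0.25 (exact p = 0.0286, unadjusted) without the photoreceptor-rich libraries. Col4a3 to Col4a4 differed by -0.10 after laser in wild type (exact p = 0.533) and by 0.31 in Ceacam1-/- (exact p = 0.27). Between genotypes it differed by -0.07 without laser (exact p = 0.743) and by 0.35 with laser (exact p = 0.0794), the latter being 0.00 without the photoreceptor-rich libraries (exact p = 0.986). The Col6a1 to Col6a2 ratio was higher in Ceacam1-/- than in wild type after laser by 0.37 (exact p = 0.0136, adjusted p = 0.0485), but this was 0.06 (exact p = 0.396) without the photoreceptor-rich libraries.

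**Figure D5:**
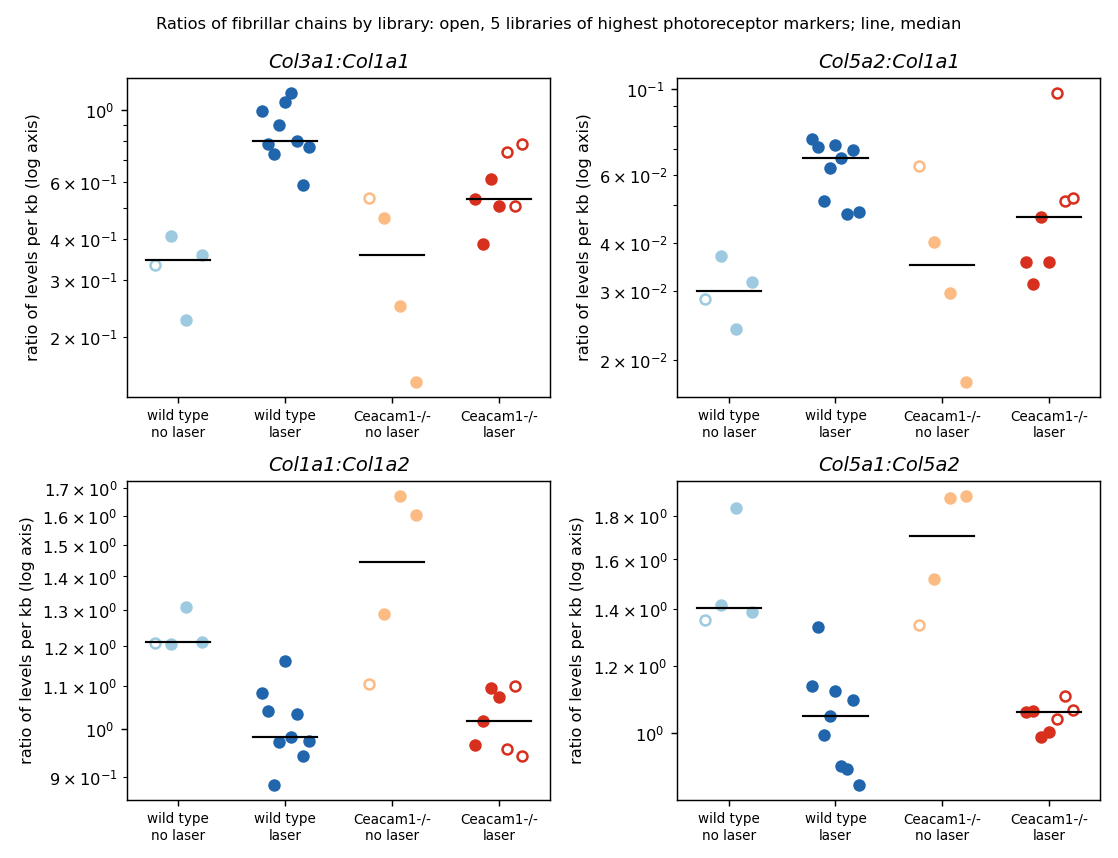
Ratios of levels per kb between fibrillar chains in each library (log axes), with medians as lines and open circles for the 5 libraries of highest photoreceptor markers. Within each genotype, the laser libraries lie below those without laser for Col1a1 to Col1a2 and for Col5a1 to Col5a2.

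Between genotypes no collagen gene was called by limma. Without laser 0 of 44 passed and none had an unadjusted p under 0.05, where 0 of 20057 genes (0.0%) passed and 307 had such a p. Ceacam1 itself, with means of 2956 in wild type and 647.1 in Ceacam1-/-, was thus not called either. The paper did report genes that differed between genotypes without laser, from DESeq2 with sex as a covariate. An absence of calls in the present fit is therefore not evidence that the genotypes are alike. Among members, the lowest p-values in this fit were those of Col4a5, Col11a2 and Col19a1. Col4a5, a chain of the specialised type IV networks, was 423.3, 647.5, 698 and 425.6 in wild type and 566.2, 723.6, 834.6 and 836.9 in Ceacam1-/- (log2 fold change 0.45 ± 0.25 SE, unadjusted exact permutation p = 0.114). Col1a1 and Col4a1 had log2 fold changes of -0.34 ± 0.65 and 0.11 ± 0.36 (SE), or 0.04 ± 0.48 and 0.21 ± 0.27 without the photoreceptor-rich libraries, so differences of this size were not detectable with the 4 or, in the latter fit, 3 libraries a group.

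After laser 0 of 44 passed between genotypes, against 4 of 19757 genes (0.0202%), and 9 members had an unadjusted p under 0.05, 3 of them higher in Ceacam1-/-, beside 4479 genes (22.67%). The lowest p-values belonged to Col20a1 (log2 fold change 1.32 ± 0.41 SE), Col5a3 (-1.04 ± 0.36 SE) and Col9a3 (-1.30 ± 0.45 SE), at adjusted p-values of 0.131, 0.146 and 0.147 in limma. Without the photoreceptor-rich libraries their log2 fold changes were 1.14 ± 0.48, -0.23 ± 0.24 and -0.26 ± 0.24 (SE). Col9a3 was 5079 to 15036 in wild type after laser (median 8176) and 778.3 to 8455 in Ceacam1-/- (median 5217), its 3 lowest values being those of libraries 18, 15 and 14. Without the photoreceptor-rich libraries 14 members had an unadjusted p under 0.05, all of them higher in Ceacam1-/-, beside 1623 of 19316 genes (8.402%), and none passed the adjustment. The direction of the log2 fold change turned for 23 of the 44 members between these fits. All 8 basement membrane chains had negative log2 fold changes with all libraries (-1.01 to -0.06) but 5 of the 8 were positive in that subset. With all libraries the medians were -0.52 over endothelial, -0.72 over pericyte and smooth muscle and -1.48 over pigment epithelium markers. The median over the 11 other basement membrane proteins was -0.51. In the subset these medians were 0.11, 0.02, -0.53 and 0.26, and the part of these cells in the collagen values was not tested.

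A difference between genotypes in the change after laser was tested as an interaction, and no member passed. There 0 of 44 passed by limma, as did 0 of 19950 genes (0.0%), with 4 members and 1241 genes at an unadjusted p under 0.05. The lowest p-values were those of Col4a4 (-1.42 ± 0.64 SE), Col9a3 (-1.58 ± 0.73 SE) and Col9a1 (1.76 ± 0.84 SE), all at an adjusted p of 0.64 in limma, and without the photoreceptor-rich libraries they were -0.80, -0.65 and 1.15. For the genes called in wild type the interaction was -0.59 ± 0.82 (SE) for Col3a1, -0.66 ± 0.69 for Col5a2 and -1.13 ± 0.61 for Col5a3. Without the photoreceptor-rich libraries it was 0.46 ± 0.55, 0.30 ± 0.40 and -0.36 ± 0.41 (SE), so its direction turned for Col3a1 and Col5a2, as it did for 19 of the 44 members. The call in 1 genotype and not in the other is thus not shown to be a difference between them.

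Some members had their highest values in a few libraries. Col17a1, the transmembrane collagen of epithelial hemidesmosomes, was 7146 and 667.1 in libraries 22 and 27 (wild type no laser), 3242 in library 28 (Ceacam1-/- no laser), 858.4 in library 19 (wild type laser) and 7435 in library 15 (Ceacam1-/- laser), and 175 or less in the other 19. These are the 5 libraries of highest surface epithelium markers. Col2a1 and Col9a1, chains of the vitreous and of cartilage fibrils, were 748.3, 675.2 and 1044 and 838.1, 741.8 and 764.6 in libraries 14, 15 and 18, the 3 highest values of each gene. The next highest lay in libraries 21 and 23, at 473.9 and 426.8 for Col2a1 and 373.3 and 392.1 for Col9a1. Between genotypes after laser these 2 genes had log2 fold changes of 1.64 ± 0.65 and 1.26 ± 0.47 (SE) with adjusted p-values of 0.173 and 0.164 in limma, and 0.51 ± 0.63 and 0.46 ± 0.47 (SE) without the photoreceptor-rich libraries. The 8 cartilage markers, of which 6 were above 0 in every library, summed to 756, 2113 and 2459 in the same libraries against 5387 to 18263 in libraries 4 to 7. Col19a1, Col25a1 and Col6a4 were highest in library 14 (213.9, 383.2 and 150.7).

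Genes that act on collagen were read from lists that contain no collagen chain. Of 30 enzymes and chaperones of collagen folding and crosslinking, 8 were called higher after laser in wild type, 1 in Ceacam1-/- and none lower in either, beside the 4.23 and 2.07% of all genes called higher. Lysyl oxidase (Lox), which starts crosslinking, was called in both (log2 fold change 3.12 ± 0.52 SE and 2.64 ± 0.54 SE, adjusted p = 0.000602 and 0.00846), and P4ha3, a subunit of prolyl hydroxylase, in wild type (2.23 ± 0.51 SE). Without the photoreceptor-rich libraries 19 of the 30 were higher in wild type and 19 in Ceacam1-/-, beside 5.76 and 8.66% of all genes. The list median was 0.92 in wild type and 0.46 in Ceacam1-/- with all libraries, beside -0.10 and 0.02 over all genes, and 0.80 and 1.01 without the photoreceptor-rich ones. Its most abundant gene was Serpinh1, the collagen chaperone HSP47, at 3814 to 37410.

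Of 7 collagenases and gelatinases, 4 were called higher in each genotype and none lower (medians 1.89 and 2.06), and 5 in wild type and 6 in Ceacam1-/- without the photoreceptor-rich libraries (medians 1.58 and 3.06). For this and the following lists, the shares of all genes called higher were 4.23% in wild type and 2.07% in Ceacam1-/-. Without the photoreceptor-rich libraries they were 5.76 and 8.66%. Mmp8, a collagenase of neutrophils, rose by 4.55 ± 0.60 (SE) in wild type and 3.71 ± 0.63 in Ceacam1-/-, and Mmp9, a gelatinase, by 3.45 ± 0.58 and 3.73 ± 0.60, while Mmp14, the most abundant of the list, was called in wild type (1.89 ± 0.45 SE, adjusted p = 0.0139) and had 1.31 ± 0.47 (SE, adjusted p = 0.116) in Ceacam1-/-. Of 9 collagen binding proteoglycans, Aspn and Lum were called in wild type (1.88 ± 0.50 and 1.90 ± 0.52 SE) and Lum in Ceacam1-/- (2.11 ± 0.54 SE), and decorin (Dcn), the most abundant at 12574 to 193636, was called in neither. Without the photoreceptor-rich libraries 2 proteoglycans were higher in wild type and 5 in Ceacam1-/-. Of the 9 collagen receptors tested of 10 listed, Lair1, an inhibitory receptor of leukocytes, rose in both (2.15 ± 0.38 and 1.65 ± 0.39 SE), and without the photoreceptor-rich libraries 3 and 4 receptors were higher. Of 11 other basement membrane proteins, Lamb1, a laminin chain, rose in wild type (1.19 ± 0.33 SE) and none was called in Ceacam1-/- with all libraries, against 2 higher in each genotype without the photoreceptor-rich ones.

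Beside these changes, 5 of 6 myeloid markers rose in wild type and 4 of 6 in Ceacam1-/-, led by Lyz2 (2.74 ± 0.40 and 2.44 ± 0.41 SE), and the 6 summed to 8212 to 17293 in wild type without laser and 37358 to 106748 after laser. None of the 8 fibroblast markers, whose most abundant gene is Gsn, was called in either genotype with all libraries (medians 0.62 and 0.28), against 1 and 4 called higher without the photoreceptor-rich libraries. Of these markers, Pdgfra did not overlap in wild type (916.9 to 1456 without laser, 1647 to 3400 after laser). It overlapped in Ceacam1-/- (767.7 to 1408 and 551.7 to 3355), and Gsn overlapped in wild type (9605 to 27436 and 14192 to 24427). The mean of Gsn was 17845 in wild type without laser, where the mean marker sum was 31264, so the following ratio rests largely on Gsn. The ratio of the fibrillar collagen sum to the fibroblast marker sum was 3.304, 2.076, 4.227 and 2.502 in wild type without laser and 2.852 to 10.09 after laser, with library 17 alone among the 9 inside the earlier range. In Ceacam1-/- it was 1.513 to 3.486 without laser and 2.538 to 11.11 after laser, with library 15 alone inside the earlier range, libraries 14 and 18 being at 5.693 and 4.483. None of the 8 endothelial, 8 pericyte and smooth muscle, 6 melanocyte or 6 pigment epithelium markers was called in either genotype with all libraries. The part of any of these cells in the collagen values was not tested.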

How the data were processed

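Choroid from 24 libraries was sequenced after SMART-Seq amplification of total RNA (paired-end). Per the submitters' processing notes, the authors quantified reads with Salmon 1.10.3 against GRCm39 after FastQC 0.11.5 and deposited DESeq2 1.44.0 normalized counts per gene, a depth-scaled signal of non-whole estimates and not raw counts, so counting intervals could not be given and no count model was used. Sums per library were 23704346 to 35094410. Of 56065 identifiers, 99.1% matched GENCODE vM39 by gene ID.

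The authors left 1 outlier sample out of their own evaluation of choroid without laser, and the 4 and 4 libraries without laser here equal in number those they kept. Groups came from the labels. Values were tested as log2(normalized count + 1) with limma 3.58.1 (R 4.3.3, trended prior) for genes with a mean of at least 10, adjusted by Benjamini-Hochberg over all genes tested at 0.05. Laser effects and the interaction were fitted on all 24 libraries, genotype effects on the 8 libraries without laser and the 16 after laser. The procedure was run on simulated data with independent noise for each gene. Those data lacked the shared differences in tissue content between libraries, so the run does not cover them. Single genes and chain ratios were compared by exact permutation of libraries. Levels were divided by canonical transcript length (Python 3.11.15, pandas 2.3.3, numpy 2.4.6), and figures were drawn with matplotlib 3.10.9.

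The members and lists were chosen with earlier results of these data known. Named members were Col1a1, Col3a1, Col4a1 and Col18a1, every called member or else the 3 of lowest p in a comparison, the 3 highest per kb of each collagen group, and partner chains, and others named were chosen after their values were seen. The photoreceptor, surface epithelium, skeletal muscle, lens, Schwann cell and cornea stroma marker lists gave no called gene after laser with all libraries except Ptgds (lower) and Angptl7 (higher), both of the cornea stroma list, in Ceacam1-/-, and in the cartilage list Matn3 (higher) was called in wild type. Other pseudocounts, filters, scalings, variance models, a Y-linked covariate and each library left out in turn were tried.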

Additional observations from a re-analysis of the deposited data

Results flagged for a closer look

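Within the groups, 4 of 84 sets of library values of the named collagen genes held a library far from the others on the log2 scale, where chance flags about 1 in 20. Col18a1 was 3681 in library 26, the highest of the 4 wild type libraries without laser. Col4a2 was 1212 in library 23, the lowest of the 4 Ceacam1-/- libraries without laser and the library of highest Mbp (375721). Col19a1 was listed at 0 in library 17 of wild type after laser, and Col9a1 was lowest (33.48) in library 12 of the same group.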

How the results depend on the processing

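No named collagen change that passed the test was reversed under the alternatives run, but several that did not pass were. Without the photoreceptor-rich libraries the interaction turned to 0.46 for Col3a1 and 0.30 for Col5a2, and the genotype difference without laser turned to 0.04 for Col1a1 (0.04 with array weights too), while that of Col4a1 turned to -0.06 without the epithelium-rich libraries. Between the fits with and without the photoreceptor-rich libraries, the direction turned for 5 of 44 members after laser in wild type, 5 in Ceacam1-/-, 23 between genotypes after laser, 19 in the interaction and 5 of 43 between genotypes without laser. Collagen calls after laser in wild type (3) became 21 with array weights (18 higher), 15 with wild type libraries alone in the fit, 13 without the photoreceptor-rich libraries and 0 without the epithelium-rich ones, the last 2 sets chosen after the data were seen. In Ceacam1-/- (0) they became 18 with array weights and 14 without the photoreceptor-rich libraries, and between genotypes after laser 1 with array weights (Col11a2). All genes called after laser in wild type (1053) became 6505, 2274, 1645 and 491 under the same 4 settings. In Ceacam1-/- (742) they became 437 with no filter on low values, 3551 with array weights, 38 with the Ceacam1-/- libraries alone and 2923 without the photoreceptor-rich libraries. Between genotypes after laser (4) they became 2 at a mean of at least 50, 297 with array weights, 9 with all 24 libraries in the fit and 2 without the photoreceptor-rich libraries, and without laser (0) 1 without a trend and 1 with array weights. The causes were not tested.

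With each library left out in turn, collagen calls ran from 0 to 7 in wild type (0 without library 21, 7, 6 and 6 without libraries 14, 18 and 23) and from 0 to 5 in Ceacam1-/- (2 without library 14, 5 without library 23, 1 without each of 6, 15 and 18), and were 0 in the other comparisons. All genes called ran from 479 to 1257 in wild type, 148 to 2488 in Ceacam1-/-, 4 to 61 between genotypes after laser and 0 to 1 without laser. Log2 fold changes that turned ran from -0.45 to 0.01 for Col4a3 and -0.27 to 0.19 for Col4a4 after laser in wild type, and from -0.83 to 0.27 for Col1a1 and -0.08 to 0.40 for Col4a1 between genotypes without laser. No paired analysis was possible because the groups share no replicate numbers. With each library left out, the 9 chain ratio differences that passed the adjustment kept an unadjusted exact permutation p under 0.05.

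Limits are the small groups without laser, photoreceptor and surface epithelium content that differed widely within groups, and values without raw counts, so that the precision of low genes such as Col6a4 and Col19a1 is unknown.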
